A study of Mus musculus with 6 samples.

Results

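The 9 genes described here encode components of the complement system and were picked by name from a table of 43346 mouse genes. They are C1ra, C1s1, C4b, Cfb, C3 and Serping1, which connective tissue cells can make themselves, and C1qa, C1qb and C1qc, which in most tissues are made by macrophages. All 9 were found in all 6 libraries and all 9 passed the filter on low counts, with 17554 genes tested. The names were chosen with the difference between the genotypes already known, so their levels, fold changes and counts past a threshold are given as a description, and no test on them is used as evidence.

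RNA was sequenced from epiphyseal chondrocytes, the cartilage cells at the ends of growing bones, isolated from mice aged 5 days with an overnight collagenase II digest. Of the 6 libraries, 3 came from wild type C57BL/6 mice and 3 from Girk3-/- (Girk3 KO, below Girk3-null) C57BL/6 mice, which lack a potassium channel subunit. The labels name no promoter or Cre that would limit the deletion to a tissue, no other allele and no treatment in either group. The series text calls the samples of a genotype biological replicates.

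Complement is a cascade of blood and tissue proteins that tags surfaces for removal. In the classical pathway C1q binds its target and activates the proteases C1r and C1s, which cut C4 and C2. Factor B takes the place of C2 in the alternative pathway, and both routes end in cleavage of C3, while C1 inhibitor, the product of Serping1, blocks C1r and C1s. The liver makes most circulating complement, and chondrocytes and fibroblasts also make several of these proteins.

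Library totals lay between 34279516 and 60392837 counts, and the 9 genes together took between 0.0661% and 0.215% of them. The targeted gene, Kcnj9, had 0 counts in every library, so the genotype labels could not be checked on it. All animals are labelled male, but 4 Y-linked genes reached 16088 counts only in the library labelled Girk3-null replicate 1 (at most 7 in any other), where Xist had 19 counts (67346 to 144825 elsewhere), so the sex label of 5 libraries went against their transcripts. For the 9 genes, and for the other complement genes given library by library, the log2 fold change without Girk3-null replicate 1 is therefore given too. Sample titles carry numbers below 200 (wild type replicates 1 and 2, Girk3-null replicate 1) or above 200 (wild type replicate 3, Girk3-null replicates 2 and 3), and for the 9 genes the log2 ratio is also given within these 2 classes, each with a lone library of 1 genotype. What the numbers stand for is not given in the sources used here. Without Girk3-null replicate 1, the Girk3-null libraries left all have numbers above 200, while wild type replicates 1 and 2 are below. Those log2 fold changes therefore mix genotype with title class. Below 200 the lone Girk3-null library is replicate 1, so there the genotypes also differ in sex by transcript. Of the chondrocyte markers, Col2a1 ran from 28893 to 88112 CPM (counts after scaling each library to the same total, with TMM factors) and Sox9 from 221 to 427 CPM. In these digests fewer cells of a type and less RNA per cell cannot be told apart.

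Per unit of gene length, Cfb, C3 and C4b transcripts were the most abundant of the 9 genes in wild type libraries. Their levels as the authors' RPKM (reads scaled to gene length and library total) were 56.6 ± 11.8, 48.8 ± 20.6 and 48.0 ± 8.92 (mean ± SD, n = 3). C1s1 followed at 21.3 ± 2.12, Serping1 at 19.0 ± 7.83 and C1ra at 13.5 ± 2.17 RPKM. The C1q genes came last, with C1qb at 2.11 ± 0.840, C1qa at 1.08 ± 0.597 and C1qc at 0.468 ± 0.151 RPKM. In wild type libraries only the steps from C4b to C1s1 and from C1ra to C1qb were free of overlap between neighbours in this order. In Girk3-null libraries the order was the same except that C1ra (23.3 ± 4.30 RPKM) stood above Serping1 (14.8 ± 3.91 RPKM), without overlap. Cfb then measured 127 ± 49.7, C3 120 ± 62.4 and C4b 80.0 ± 15.3 RPKM.

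**Figure D1:**
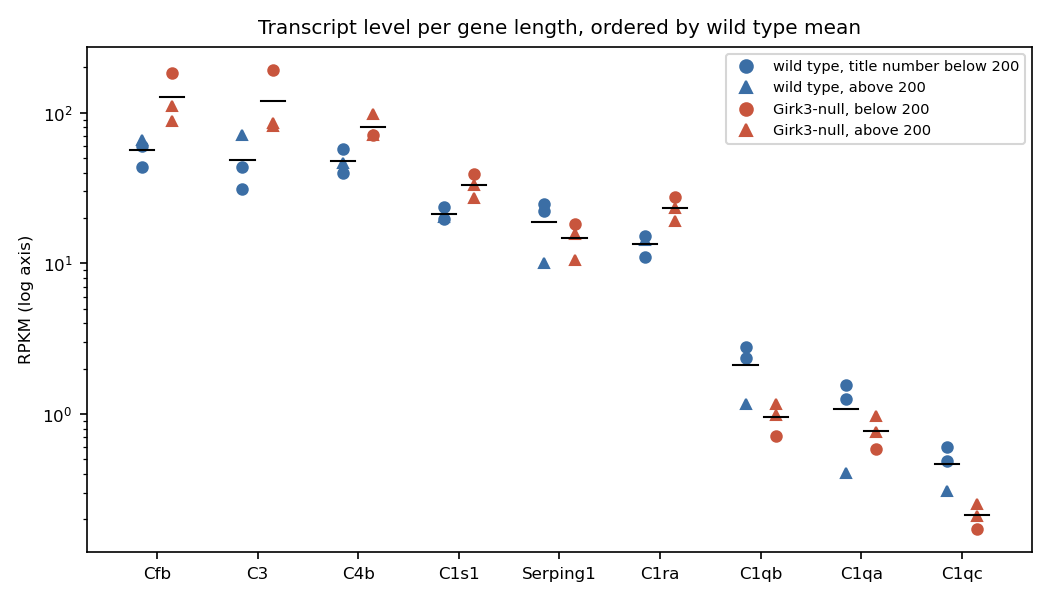
RPKM of the 9 complement genes on a log axis, ordered by the wild type mean; points are libraries (blue, wild type; red, Girk3-null; circles and triangles, title numbers below and above 200) and black lines are group means. Cfb, C3 and C4b lie highest and the 3 C1q genes lie lowest, at group means of 2.11 RPKM or less.

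C1ra and C1s1 encode the protease pair of the C1 complex and lie next to each other on chromosome 6. C1ra (ENSMUSG00000055172, chr6:124512632-124523440, mm10) and C1s1 (ENSMUSG00000038521, chr6:124530345-124542359) together span 29.7 kb. C1ra measured 39.0, 28.1 and 40.6 CPM in wild type replicates 1, 2 and 3 and 77.4, 66.0 and 55.8 CPM in Girk3-null replicates 1, 2 and 3. Every Girk3-null library stood above every wild type library, with a log2 fold change of 0.89 (standard error 0.17). C1s1 measured 69.8, 57.5 and 65.9 CPM in wild type and 124, 106.9 and 91.3 CPM in Girk3-null libraries, again without overlap, with a log2 fold change of 0.74 (standard error 0.14). Within the title classes the log2 ratio of mean CPM was 1.21 below 200 and 0.58 above 200 for C1ra, and 0.97 and 0.59 for C1s1. Without Girk3-null replicate 1 the log2 fold changes were 0.76 and 0.62.

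The 2 protease transcripts kept a similar proportion across libraries. C1ra amounted to 0.636, 0.555 and 0.701 of C1s1 in RPKM in the wild type libraries and to 0.708, 0.702 and 0.695 in the Girk3-null libraries. Each has a near-identical copy, and in GENCODE transcripts 48.0% of the 50-base windows of C1ra also occur in C1rb and 21.8% of those of C1s1 also occur in C1s2. Counts of C1rb were 3.13% to 5.29% of those of C1ra, and counts of C1s2 were 0.785% to 1.44% of those of C1s1. How reads shared by the copies were assigned is not given in the sources used here. The split between copies is therefore uncertain.

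C4b encodes complement C4, the substrate of C1s, and lies in the major histocompatibility complex (ENSMUSG00000073418, chr17:34728380-34743882, mm10). It measured 308, 211 and 274 CPM in wild type and 412, 572 and 435 CPM in Girk3-null libraries. The groups did not overlap, and the highest library was Girk3-null replicate 2, not replicate 1 as for C1ra, C1s1, Cfb and C3. The log2 fold change was 0.84 (standard error 0.18). The log2 ratio was 0.67 below and 0.88 above title number 200, and the log2 fold change was 0.93 without Girk3-null replicate 1. Of its 50-base windows, 34.6% also occur in the copy C4a, which had 2.27% to 2.85% of the counts of C4b in each library.

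Cfb encodes factor B, the protease of the alternative pathway, and spans 134 kb together with C4b (ENSMUSG00000090231, chr17:34856374-34862518, mm10). It measured 159, 114 and 193 CPM in wild type and 527, 324 and 265 CPM in Girk3-null libraries, without overlap, a log2 fold change of 1.26 (standard error 0.28). Below title number 200 the log2 ratio was 1.95, and above 200 it was 0.61. Without Girk3-null replicate 1 the log2 fold change was 0.93. Gm20547, a gene model that overlaps Cfb on the same strand and shares 73.0% of its 50-base windows, held 90.3% to 95.2% as many counts as Cfb in every library, so the 2 rows are not separate measurements.

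C3 encodes the central protein on which all complement routes converge (ENSMUSG00000024164, chr17:57203970-57228136, mm10). It measured 209.8, 149 and 379.6 CPM in wild type and 1007, 435 and 473 CPM in Girk3-null libraries. The groups did not overlap, but wild type replicate 3 stood close to Girk3-null replicates 2 and 3, and Girk3-null replicate 1 stood far above all others. The log2 fold change was 1.37 (standard error 0.41). Below title number 200 the log2 ratio was 2.49, and above 200, where wild type replicate 3 is the lone control, it was 0.26. Without Girk3-null replicate 1 the log2 fold change was 0.89, and without wild type replicate 3 it was 1.83. The liver protein gene Alb had 2 counts in wild type replicate 1 and 0 in the other 5 libraries.

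Serping1, which encodes C1 inhibitor, did not share the pattern of the proteases it inhibits (ENSMUSG00000023224, chr2:84765387-84775444, mm10). It measured 53.8, 47.8 and 24.0 CPM in wild type and 43.3, 37.4 and 26.3 CPM in Girk3-null libraries. The groups overlapped, and the lowest library of each was one with a title number above 200. The log2 fold change was -0.23 (standard error 0.29), with a log2 ratio of -0.23 below and 0.41 above title number 200. Without Girk3-null replicate 1 the log2 fold change was -0.39.

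The C1q genes encode the 3 chains of the recognition protein of the classical pathway and lie within 18.7 kb on chromosome 4. They had only 14 to 135 counts per library. C1qb (ENSMUSG00000036905, chr4:136880129-136886187, mm10) measured 2.86, 2.37 and 1.32 CPM in wild type and 0.793, 1.31 and 1.15 CPM in Girk3-null libraries. The groups did not overlap, but wild type replicate 3 (54 counts, 95% Poisson interval 0.990 to 1.72 CPM) and Girk3-null replicate 2 (57 counts, 0.990 to 1.69 CPM) could not be separated at this depth. The log2 fold change was -1.02 (standard error 0.36). The reads carry no molecular identifiers, so these intervals hold counting error alone.

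C1qc (ENSMUSG00000036896, chr4:136889804-136893065, mm10) measured 0.889, 1.09 and 0.610 CPM in wild type and 0.337, 0.504 and 0.436 CPM in Girk3-null libraries, without overlap, a log2 fold change of -1.03 (standard error 0.37). C1qa (ENSMUSG00000036887, chr4:136895917-136898803, mm10) measured 1.52, 1.21 and 0.439 CPM in wild type and 0.624, 1.03 and 0.842 CPM in Girk3-null libraries. Here the groups overlapped, because wild type replicate 3 was the lowest of the 6 libraries, and the log2 fold change was -0.36 (standard error 0.46). Below title number 200 the log2 ratios of C1qa, C1qb and C1qc were -1.13, -1.72 and -1.55. Above 200 they were 1.09, -0.10 and -0.37. Without Girk3-null replicate 1 the log2 fold changes of C1qa, C1qb and C1qc were -0.18, -0.83 and -0.87. Summed over the 3 genes, wild type libraries had 5.27, 4.67 and 2.37 CPM and Girk3-null libraries 1.75, 2.84 and 2.43 CPM, so the sums overlapped.

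**Figure D2:**
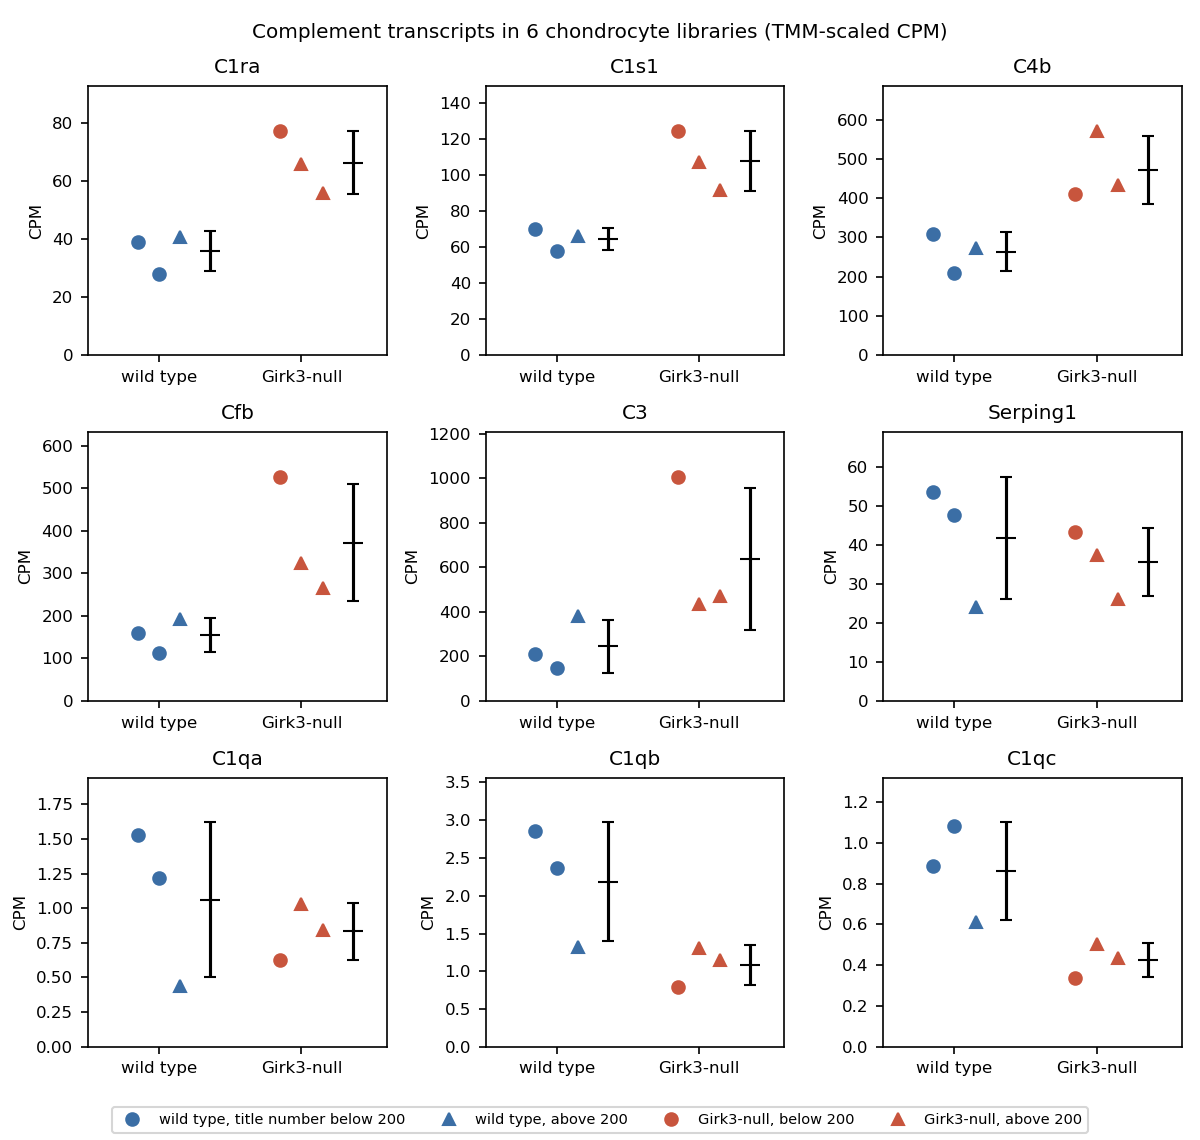
TMM-scaled CPM of each complement gene in every library; circles and triangles are libraries with title numbers below and above 200, and the black marks are group means with SD (n = 3). Girk3-null libraries lie above all wild type libraries for C1ra, C1s1, C4b, Cfb and C3, below them for C1qb and C1qc, and overlap them for Serping1 and C1qa.

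Over the 9 genes, 5 had every Girk3-null library above every wild type library, where 9.86% of the 17554 tested genes did, and 2 had every Girk3-null library below, where 10.2% did. With edgeR's quasi-likelihood test, 0 of the 9 were called at a threshold of 0.05 on the adjusted p, against 0.00570% of all tested genes, and 7 had an unadjusted p under 0.05, against 14.5%. DESeq2 called 4 (C1ra, C1s1, C4b and Cfb), against 1.93% of all genes, and limma-voom called 0. Nothing is read from these counts, because the contrast was known when the genes were named.

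Promoter sequence was looked up for the 9 genes to show what stands before the start sites of members that differ in their pattern across libraries. RefSeq (GRCm38.p6) entries were matched for C1ra, C1s1, C3, C1qb and C1qc, and not for C4b, Cfb, Serping1 and C1qa. Sequences are 5′ to 3′ on the gene's strand, end just before the RefSeq start site (for C1qc, before the annotated first exon), and have matches to 4 motifs in capitals. The sequences printed are those that held a match: C3 and C1s1, which were higher in Girk3-null libraries, and the C1q genes C1qb and C1qc. C1ra, also higher in Girk3-null libraries, held no match and is not printed. The sequences shown therefore do not stand for either set of genes. The regions are chr17:57228137-57228386 for C3, chr6:124542360-124542609 for C1s1, chr4:136886201-136886450 for C1qb and chr4:136893066-136893164 for C1qc, all on the minus strand.
C3: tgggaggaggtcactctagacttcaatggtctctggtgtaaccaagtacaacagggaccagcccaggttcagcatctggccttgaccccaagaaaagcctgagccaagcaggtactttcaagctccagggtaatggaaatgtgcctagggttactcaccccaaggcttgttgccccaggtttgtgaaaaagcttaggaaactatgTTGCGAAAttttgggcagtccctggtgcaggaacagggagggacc
C1s1: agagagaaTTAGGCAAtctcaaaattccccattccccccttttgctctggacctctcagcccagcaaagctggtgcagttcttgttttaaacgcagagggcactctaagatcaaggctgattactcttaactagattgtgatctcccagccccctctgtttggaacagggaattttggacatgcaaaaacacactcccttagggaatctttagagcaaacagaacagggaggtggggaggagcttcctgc
C1qb: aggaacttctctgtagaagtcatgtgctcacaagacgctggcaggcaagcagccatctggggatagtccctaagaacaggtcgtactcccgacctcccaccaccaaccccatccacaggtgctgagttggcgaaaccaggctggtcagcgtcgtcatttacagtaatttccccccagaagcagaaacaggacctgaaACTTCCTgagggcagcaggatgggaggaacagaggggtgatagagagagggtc
C1qc: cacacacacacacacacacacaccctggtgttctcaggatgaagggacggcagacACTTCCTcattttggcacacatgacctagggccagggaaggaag

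The motifs were searched on both strands of the 250 bases before each start site. The C/EBP letters TTGCNNAA were matched once in C3 (TTGCGAAA) and once in C1s1 (TTAGGCAA on the opposite strand), and in 9.56% of 32851 promoters of the same length. The letters AGGAAGT, the core bound by the myeloid factor PU.1, were matched once each in C1qb and C1qc, as ACTTCCT on the opposite strand, and in 7.69% of all promoters. The interferon-related letters TTCNNNGAA (GAS, 7.02% of all promoters) and GAAANNGAA (ISRE, 7.13%) had no match in the 5 promoters. In C1ra none of the 4 motifs was matched. No matches overlapped each other. These are matches of letters, not measured binding.

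Among 47 other complement genes, 32 passed the filter on low counts and 0 were called by edgeR at an adjusted p of 0.05 (0.00570% of all tested genes were). Unadjusted p was under 0.05 for 8 of the 32, 5 higher and 3 lower in Girk3-null libraries, where 14.5% of all tested genes passed. DESeq2 called 5 of the 32, against 1.93% of all tested genes, and limma-voom 0. Log2 fold changes were positive for 16 and negative for 16 of the 32, and their median was 0.03, against 0.01 over all tested genes. The groups did not overlap in 5 higher genes (C1rl, C4a, Cd59b, Clu and C5ar2) and 3 lower ones (Colec10, Vtn and Cd93), some of which are named because of their values. These 8 of 32 stand beside 20.0% of all tested genes, a share close to that background.

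Genes listed under the first steps of the cascade were mostly low. C4a, the copy of C4b, is annotated as a processed transcript and not as protein coding. It measured 7.37, 5.32 and 7.78 CPM in wild type and 10.5, 15.6 and 9.88 CPM in Girk3-null libraries, a log2 fold change of 0.82 (edgeR adjusted p = 0.291). C1rl, a relative of C1r, measured 4.47, 3.81 and 5.10 against 11.3, 9.47 and 5.58 CPM (0.99, adjusted p = 0.291 in edgeR). C2, the classical pathway partner of C4, had overlapping groups with 8.64, 5.04 and 2.51 against 4.51, 4.70 and 3.62 CPM (-0.34, adjusted p = 0.693 in edgeR). Cfp, which encodes the alternative pathway stabiliser properdin, ranged from 6.56 to 10.2 CPM over all libraries (0.11). The lectin pathway genes Mbl1 and Mbl2 had 0 counts in every library, which allows up to 0.0935 CPM in the shallowest library, and Cfd, the protease that cuts factor B, had 1 count in each of 2 libraries. Without Girk3-null replicate 1 the log2 fold changes of C4a, C1rl and C2 were 0.91, 0.76 and -0.38. Within the title classes their log2 ratios were 0.73, 1.45 and -0.60 below 200 and 0.71, 0.56 and 0.73 above 200, so C2 changed sign.

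Of 7 genes of the terminal pathway that forms the membrane pore, only Hc, which encodes C5, and C8g passed the filter. Hc ranged from 0.202 to 0.572 CPM and C8g from 0.275 to 2.31 CPM, the highest in Girk3-null replicate 1. C6, C7, C8a, C8b and C9 had between 0 and 14 counts in a library.

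Among regulators, Clu stood highest. It encodes clusterin, a secreted chaperone that also blocks pore formation, and measured 91.7, 66.3 and 171 CPM in wild type and 334, 221.9 and 221.9 CPM in Girk3-null libraries (log2 fold change 1.24, standard error 0.33, edgeR adjusted p = 0.291). The groups did not overlap, and wild type replicate 3 was the highest wild type library, as for C3. The log2 ratio of Clu was 2.08 below and 0.38 above title number 200, and its log2 fold change was 1.02 without Girk3-null replicate 1. Cr1l, the mouse membrane regulator Crry, ranged from 57.5 to 82.3 CPM (-0.09) and overlapped between groups. Cd55, which speeds the decay of C3 convertases, reached at most 15.1 CPM (-0.50). Vtn, named after its value was seen, measured 0.953, 1.43 and 0.439 against 0.101, 0.0917 and 0.218 CPM, a log2 fold change of -2.84 (edgeR adjusted p = 0.291). These values are limited by depth, at 45, 78 and 18 counts in wild type and 6, 4 and 7 counts in Girk3-null libraries. Vtn had log2 ratios of -3.56 below and -1.50 above title number 200 and a log2 fold change of -2.65 without Girk3-null replicate 1.

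Receptor genes had a median log2 fold change of -0.06 over 8 tested members. Itgam and Itgb2, which together form complement receptor 3 of myeloid cells, ranged from 18.9 to 48.0 CPM (-0.11) and from 18.8 to 32.2 CPM (0.17), with overlapping groups. C1qbp, a mitochondrial protein that can bind C1q, ranged from 55.6 to 81.6 CPM (-0.20). Cd93, which is also expressed by endothelial cells, measured 44.2, 58.8 and 39.4 CPM in wild type and 14.6, 26.4 and 31.4 CPM in Girk3-null libraries (-0.98, adjusted p = 0.291 in edgeR). Its log2 ratio was -1.82 below and -0.45 above title number 200, and without Girk3-null replicate 1 its log2 fold change was -0.72. Endothelial markers as a list were lower alongside it, as given below with the marker lists.

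**Figure D3:**
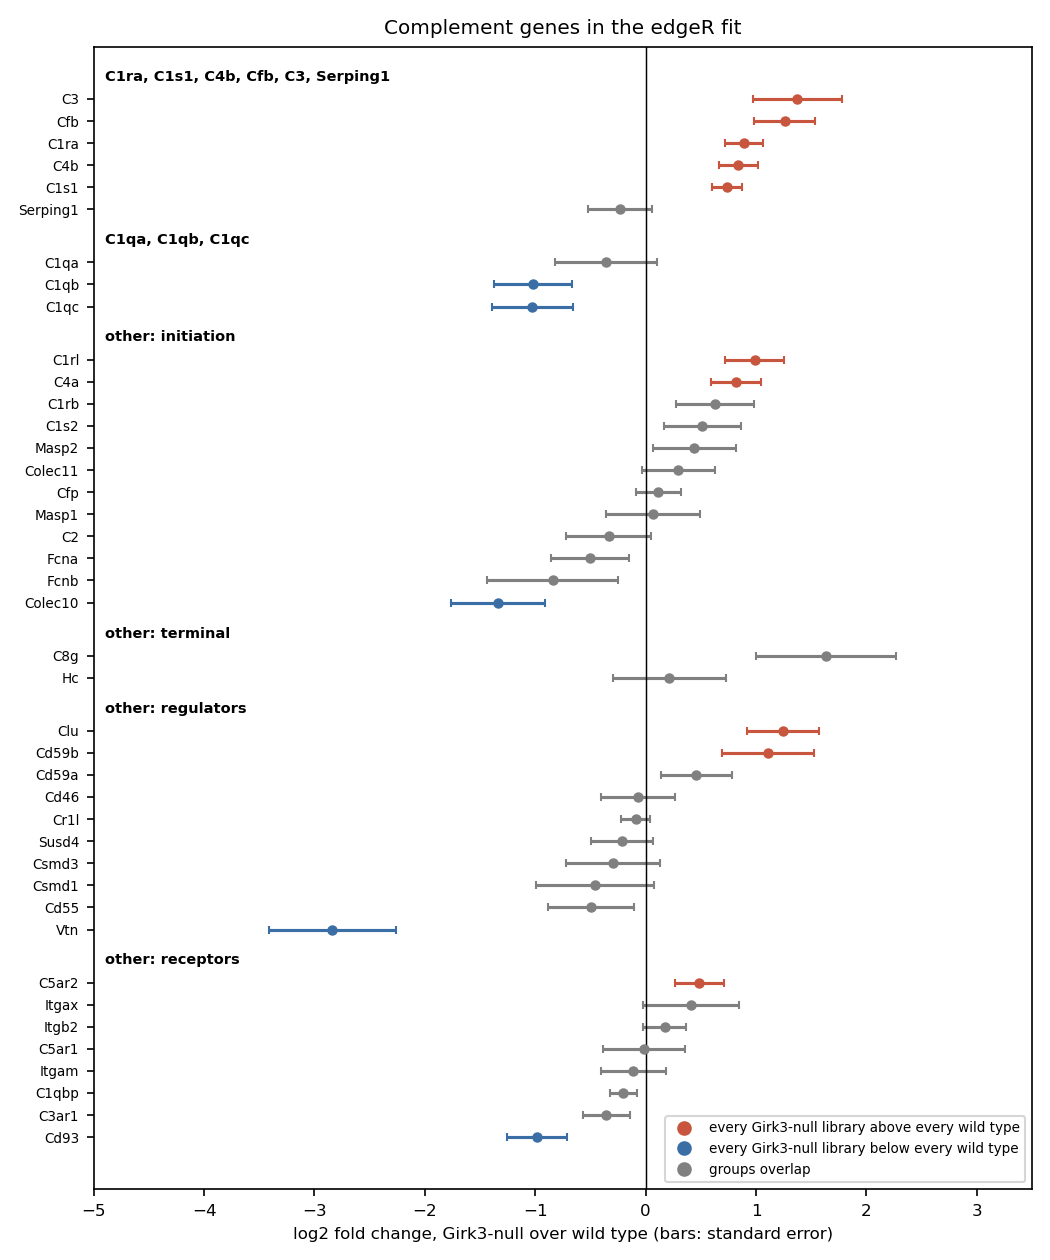
Log2 fold changes (Girk3-null over wild type) with standard errors from edgeR for the 9 genes and the 32 other complement genes tested, grouped by role; red and blue mark groups that did not overlap. C3, Cfb, C1ra, C4b and C1s1 lie between 0.74 and 1.37, and Vtn, with 4 to 78 counts in a library, lies lowest at -2.84.

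Marker lists of the cells in the digest were summed in each library. The 20 macrophage markers summed to 457, 363 and 362 CPM in wild type and 446, 427 and 328 CPM in Girk3-null libraries, so the groups overlapped. The sums of the 3 C1q genes overlapped too, at 2.37 to 5.27 CPM in wild type and 1.75 to 2.84 CPM in Girk3-null libraries. Log2 fold changes were positive for 6 and negative for 13 of the 19 tested macrophage markers (median -0.16), and 0 were called by edgeR or DESeq2. Of the 19, 2 had an unadjusted p under 0.05 in edgeR, against 14.5% of all tested genes. They were Mrc1 (-0.59) and Ms4a7 (-0.57), while Cd68 (0.66), Cd74 (0.48) and Trem2 (0.36) were among the 6 with positive values. Ms4a7 was the 1 tested marker that was lower without overlap, against 10.2% of all tested genes. The most abundant markers were Cd14 (56.3 to 112 CPM), Lyz2 (25.8 to 97.1 CPM) and Cd68 (33.3 to 99.8 CPM). Csf1r, the receptor that macrophages need to survive, measured 30.2, 25.1 and 24.3 against 21.3, 29.0 and 21.0 CPM. No macrophage marker was at 0 in all libraries, and Cd163, of resident macrophages, had 0 to 28 counts. Their part in the C1q values was not tested.

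The 18 interferon-induced genes summed to 665, 465 and 239.9 CPM in wild type and 256, 432 and 289 CPM in Girk3-null libraries. Log2 fold changes were negative for 15 of the 18 (median -0.55), with 0 at an unadjusted p under 0.05 in edgeR, against 14.5% of all tested genes. This sum and Serping1 were both lowest in wild type replicate 3. Among Girk3-null libraries, Serping1 was highest and the interferon-induced sum lowest in replicate 1. The interferon-induced sum, the summed erythroid markers and C1qa were each higher in wild type replicates 1 and 2 than in the other libraries. Whether these lists bear on Serping1 or C1qa was not tested. The 16 acute phase and NF-kB genes summed to 2527, 2246 and 2880 against 5267, 3528 and 3931 CPM, without overlap. Log2 fold changes were positive for 6 and negative for 10 of these genes (median -0.08), so the sums do not stand for the list as a whole. Unadjusted p in edgeR was under 0.05 for 6 of the 16, 4 higher and 2 lower, against 14.5% of all tested genes. At the adjusted threshold edgeR called 0 and DESeq2 2, against 0.00570% and 1.93% of all tested genes. Lcn2 and Saa3 held a large part of the sums. Lcn2, the most abundant member of the list and a secreted protein that binds bacterial iron carriers, measured 761, 574 and 1140.1 against 2751, 1513 and 1665 CPM. Saa3, a serum amyloid protein, measured 319, 182 and 238 against 1301, 690.1 and 508 CPM. Their part in the complement values was not tested.

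Endothelial markers summed to 185, 239 and 145 CPM in wild type and 32.3, 101 and 118 CPM in Girk3-null libraries, and 9 of 10 markers were lower without overlap, against 10.2% of all tested genes. All 10 had negative log2 fold changes (median -1.19, and -0.79 without Girk3-null replicate 1). The 15 chondrocyte markers summed to 69760.0, 53735 and 89254 against 82606, 116428 and 130827 CPM, and the 14 perichondrial and fibroblast markers to 18129, 16851 and 21151 against 18624, 19814 and 20773 CPM, with overlap in both. Of the perichondrial and fibroblast markers 5 had positive and 9 negative log2 fold changes (median -0.14). Unadjusted p in edgeR was under 0.05 for 4, 1 higher and 3 lower, against 14.5% of all tested genes. At the adjusted threshold edgeR called 0 of these 14 and DESeq2 1, Islr (edgeR log2 fold change 0.91), against 0.00570% and 1.93% of all tested genes. Marker by marker, 14 of 15 chondrocyte markers had positive log2 fold changes (median 0.58, and 0.75 without Girk3-null replicate 1). None was called by edgeR, 8 had an unadjusted p under 0.05 and 4 were called by DESeq2, where 14.5% and 1.93% of all tested genes passed. Those 4 were Matn1, Matn3, Snorc and Cnmd, with edgeR log2 fold changes of 1.27, 1.21, 1.06 and 0.67. In 5 of the 15 every Girk3-null library was above every wild type library, against 9.86% of all tested genes, the direction of C1ra, C1s1, C4b, Cfb and C3. Neutrophil markers ranged from 106 to 726 CPM and osteoclast markers from 305 to 347 CPM, also with overlap. Erythroid markers summed to 56.3 to 279 CPM with overlap, but all 9 tested had negative log2 fold changes (median -1.22). Of these, 0 had an unadjusted p under 0.05 in edgeR, against 14.5% of all tested genes. Skeletal muscle markers summed to 26.8 to 64.8 CPM in wild type and 10.9 to 27.0 CPM in Girk3-null libraries. Of these 10 markers 8 had negative log2 fold changes (median -1.34). Without overlap 7 were lower, against 10.2% of all tested genes, and 7 had an unadjusted p under 0.05 in edgeR, against 14.5%. At the adjusted threshold edgeR called 0 and DESeq2 4, against 0.00570% and 1.93% of all tested genes. Of the hepatocyte list only Trf, the transferrin gene that other cells also express, was abundant, at 51.7, 32.3 and 81.8 against 213, 101 and 101 CPM, and Ttr had 0 counts in every library. The part of these cells in the complement values was not tested.

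**Figure D4:**
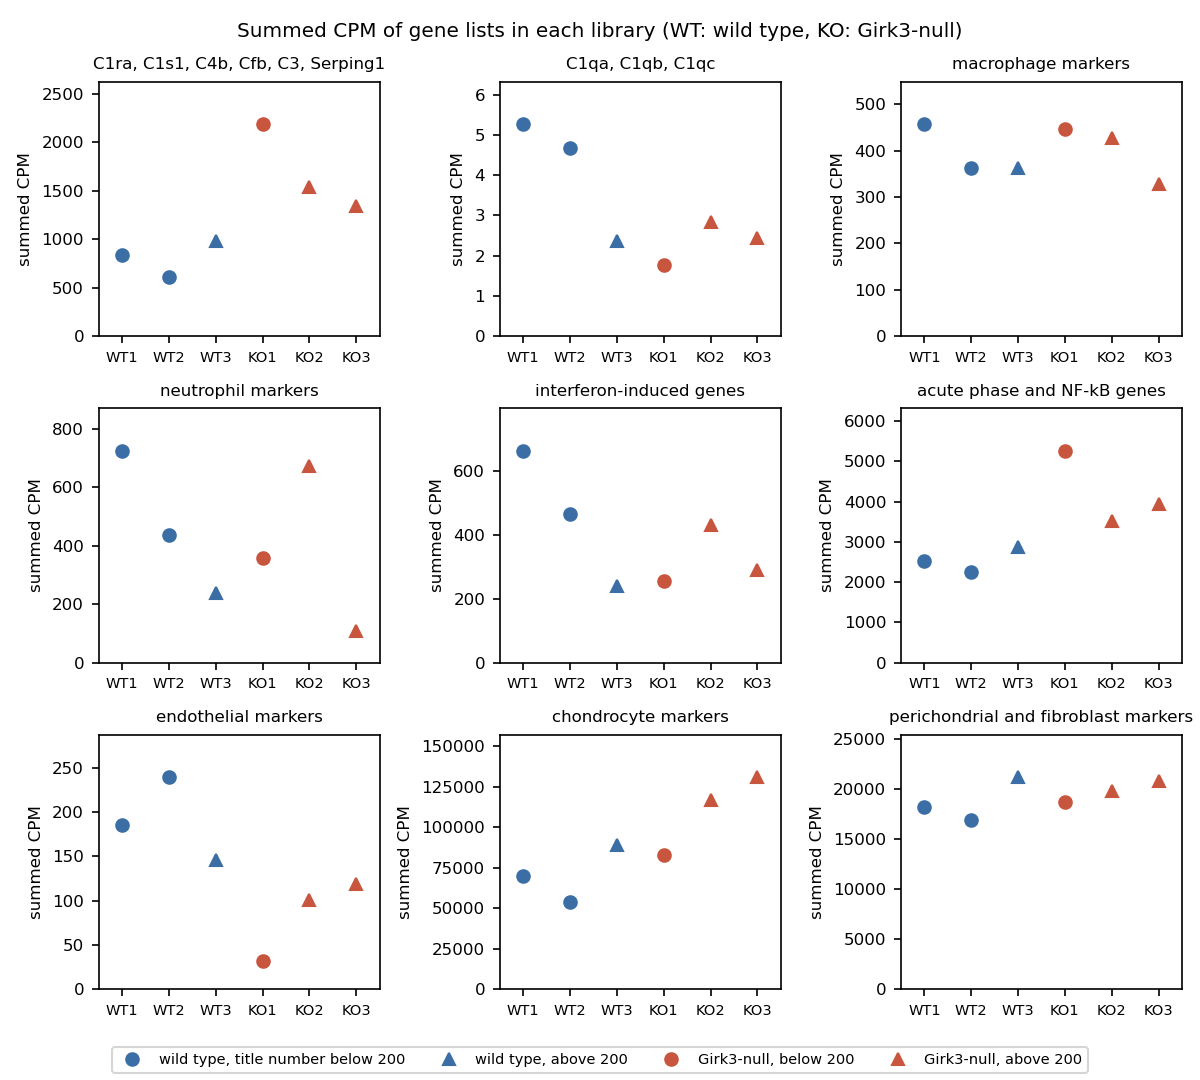
Summed CPM of 9 gene lists in each library (WT, wild type; KO, Girk3-null; circles and triangles, title numbers below and above 200). The sum of C1ra, C1s1, C4b, Cfb, C3 and Serping1 is 607 to 977 CPM in wild type and 1346 to 2191 CPM in Girk3-null libraries. The sums of the C1q genes and of macrophage markers overlap.

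Across the 6 libraries, C1ra, C1s1 and Cfb followed each other closely in log2 CPM, with Pearson correlations of 0.97 to 0.98. C3 correlated with Cfb at 0.97 and with C4b at 0.68. Serping1 correlated at -0.35 to -0.05 with C1ra, C1s1, C4b, Cfb and C3 and at 0.74 with C1qa. These values describe 6 libraries that share the genotype difference and carry no p. Among 9837 other genes that averaged 3 or more in log2 CPM, those most like C3 were Sh3glb2 (0.999), Uqcrc1 (0.998), Arl2 (0.998) and Gatsl3 (0.998), and 995 genes exceeded 0.9. Those most like Serping1 were Gypc (0.992), Fabp5 (0.987), Crip1 (0.987) and Ifitm3 (0.982), and 94 genes exceeded 0.9. Those most like C1qb were Cars (0.998), Isg20l2 (0.996), Zfp948 (0.995) and Orc2 (0.994), and 680 exceeded 0.9.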

How the data were processed

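RNA from 6 samples was measured by sequencing polyadenylated transcripts, 3 wild type and 3 Girk3-null, grouped by the genotype label, with replicates numbered in deposit order. The deposited table holds raw gene counts and RPKM, per the file headers. RPKM were scaled by the authors to gene length and library total, per the labels' protocols. bcl2fastq 2.19.0, STAR 2.5.2b and build mm10 are named in the submitters' processing notes. The sources used here do not give the counting tool, annotation or strand setting.

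Genes were kept with edgeR 4.0.16 filterByExpr (minimum count 10, minimum total 15), which left 17554 genes with 99.9% of counts. They were tested with the quasi-likelihood F-test on genotype alone with TMM factors in R 4.3.3, with Benjamini-Hochberg adjustment over all of them. The threshold was 0.05. The step was tested on simulated data. Standard errors are the absolute log2 fold change over the root of F. Levels are TMM-scaled CPM; log2 CPM used a prior count of 2. Alternatives were DESeq2 1.42.0, limma 3.58.1 (voom, and log2(RPKM + 0.1) and log2(RPKM + 1)), other scalings, no filter, a title number covariate, and leaving out each library. A count of 0 allows 3 counts, or 0.0506 to 0.0935 CPM.

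The 9 genes, the gene lists and the rule for named genes were chosen with earlier results of these data known. A gene of the regulator list is not reported here and was left out of its counts. That rule took all 9 genes, up to 4 genes with the highest mean log2 CPM per complement list, any that passed, the near-identical copies, up to 3 most abundant markers per list, and the 4 genes most correlated with C3, Serping1 and C1qb.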

Additional observations from a re-analysis of the deposited data

How the results depend on the processing

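The number of genes called in the whole table was 1 with edgeR, and it became 0 with library totals alone, limma-voom, log2(RPKM + 0.1), log2(RPKM + 1) or the title number covariate, 53 without the low-count filter and 339 with DESeq2. Leaving out each library gave 0 to 74 genes, the highest without wild type replicate 3. Other complement genes called were 0 with edgeR, 5 with DESeq2 (C1rl, C4a and Clu higher, Vtn and Cd93 lower), and 0 to 1 when leaving out each library, the 1 being Clu without wild type replicate 3 (adjusted p = 0.0435 in edgeR). C1ra, C1s1, C4b and Cfb were called by DESeq2 and by edgeR without the low-count filter, and in none of the 12 other alternatives. C1ra, C1s1, C4b, Cfb and C3 kept a positive log2 fold change in all 14 alternatives (0.74 to 0.998, 0.60 to 0.85, 0.68 to 0.96, 0.93 to 1.46 and 0.89 to 1.83). C1qa, C1qb and C1qc kept a negative value in all 14 (-0.72 to -0.01, -1.28 to -0.63 and -1.22 to -0.27), where the smallest for C1qb and C1qc came with log2(RPKM + 1), whose pseudocount is close to their level. Serping1 was negative in 13 and 0.08 with the title number covariate. No paired analysis was possible because the labels give no replicate numbers that the groups share. The C1q genes are limited by depth, with 14 to 135 counts per library.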

Other observations

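The proportions of C4b, Cfb and C3 differed between libraries. C4b amounted to 1.32, 1.27 and 0.651 of C3 in RPKM in wild type replicates 1, 2 and 3 and to 0.369, 1.19 and 0.830 in Girk3-null replicates 1, 2 and 3. Cfb amounted to 1.38, 1.39 and 0.927 of C3 in wild type and 0.953, 1.36 and 1.02 in Girk3-null libraries. C3 thus exceeded Cfb per unit of length in wild type replicate 3 and Girk3-null replicate 1, and both ratios overlapped between the genotypes.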
